A study of Rattus norvegicus with 6 samples.

Results

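The miR-29 family in rat plasma exosomes was followed through 5 mature miRNAs, rno-miR-29a-3p, rno-miR-29b-3p, rno-miR-29c-3p, rno-miR-29a-5p and rno-miR-29c-5p, taken by name from the 763 rows of the deposited count table. Exosomes, small membrane vesicles that carry RNA, were pelleted by ultracentrifugation from the plasma of male Sprague-Dawley rats aged 7 to 8 weeks, and small RNA libraries were sequenced on an Illumina HiSeq 2500. R-exo came from rats given remote ischemic pre-conditioning (RIPC), 4 cycles of 5 min of ischemia and 5 min of reperfusion of both hind limbs under anesthesia, and C-exo from control rats without RIPC. Blood was taken 48 h after the protocol in both groups, and each group had 3 libraries. Neither the labels nor the methods say whether a library held the plasma of 1 rat or of several, so the p-values measure the spread between these libraries, which may be in part technical.

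The libraries held between 5484209 and 7531737 reads counted on miRNAs. C-exo replicate 3 stood apart from its group. Over the 404 tested miRNAs its log2 levels had a Spearman's rho of 0.902 and 0.931 with the other C-exo libraries and of 0.965 to 0.983 with the R-exo libraries. Group comparisons are therefore also given without it. In the share of the most counted miRNAs, however, C-exo replicates 1 and 2 were the libraries that differed from the rest. The 10 most counted miRNAs of each library held 68.3% and 66.0% of its reads in C-exo replicates 1 and 2. They held 53.7% in C-exo replicate 3 and between 52.3% and 54.6% in the R-exo libraries.

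A miRNA is cut from a stem-loop precursor, which can yield a strand from its 5′ arm (5p) and one from its 3′ arm (3p). Usually 1 of them, the guide, is kept by an Argonaute protein, while the other, the passenger, is degraded. The seed, bases 2 to 8 of the mature strand, does most of the pairing with target transcripts, so miRNAs with the same seed share most of their predicted targets. The 3p strands of miR-29 are known to repress transcripts of collagens, elastin and other matrix proteins in fibroblasts of the heart and other organs, from which the family has its name as antifibrotic. No matrix transcript and no fibrosis was measured in these samples.

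The mature sequences are shown because the family is divided by seed and because its 3p strands differ by very few bases. They were taken from RefSeq (assembly GRCr8), in which all 5 members were found by name, and capitals mark the seed.
rno-miR-29a-3p: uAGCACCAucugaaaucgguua
rno-miR-29b-3p: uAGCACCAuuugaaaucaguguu
rno-miR-29c-3p: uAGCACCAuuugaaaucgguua
rno-miR-29a-5p: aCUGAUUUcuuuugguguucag
rno-miR-29c-5p: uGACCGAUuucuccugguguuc

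The seed AGCACCA was shared by the 3 strands of the 3p group and by no other of the 693 rat mature miRNAs in RefSeq. The 5p strands had seeds of their own, CUGAUUU in rno-miR-29a-5p and GACCGAU in rno-miR-29c-5p, and neither was found in another mature miRNA. rno-miR-29a-3p and rno-miR-29c-3p differ by a single base (C10U, with the miR-29a-3p base written first and numbering from 1 at the 5′ end). rno-miR-29b-3p differs from miR-29a-3p by C10U, G18A, U21G and A22U and has 1 more base at its 3′ end. How reads that match several miRNAs were counted is not given in the sources used here, so the split of reads between these strands is uncertain, most of all for the pair that differs by 1 base.

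The family comes from 4 stem-loops in 2 pairs. In GRCr8, Mir29a and Mir29b1 lie 291 bases apart on the minus strand of chromosome 4, and Mir29b2 and Mir29c lie 447 bases apart on the plus strand of chromosome 13 overlapping the long non-coding gene LOC102550527. Both Mir29b1 and Mir29b2 yield the identical miR-29b-3p, so its count is the sum of both loci. The stem-loops with both arms among the members are shown with the mature strands in capitals, the 5p strand first. Mir29a is at chr4:60617955-60618042 (minus strand) and Mir29c at chr13:109099359-109099446 (plus strand).
Mir29a: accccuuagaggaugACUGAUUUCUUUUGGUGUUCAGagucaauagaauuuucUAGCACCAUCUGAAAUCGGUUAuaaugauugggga
Mir29c: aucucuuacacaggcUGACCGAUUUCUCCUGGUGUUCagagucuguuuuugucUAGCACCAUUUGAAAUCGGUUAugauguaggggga

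The 3p strands carried nearly all miR-29 reads, and among them miR-29a-3p was dominant. Levels are given as CPM (counts scaled to a common library total) after TMM scaling, which corrects the size of each library for differences in composition. A read stands for a mature strand whatever its length, so levels were compared without division by length, although the ligation of adaptors is known to favor some sequences over others. The summed level of the 3 strands with the seed AGCACCA was 6928 ± 3428 CPM in C-exo and 11036 ± 2329 CPM in R-exo (SD, n = 3 each). The summed level of the 2 members of the 5p strand was 6.74 ± 2.93 CPM in C-exo and 3.31 ± 0.867 CPM in R-exo (SD, n = 3 each). Of the reads on the 3p strands, miR-29a-3p held at least 93.7% in every library, miR-29b-3p between 1.26% and 4.23%, and miR-29c-3p between 0.739% and 2.02%. miR-29a-3p ranked between 24 and 30 by count among the 763 miRNAs, miR-29b-3p between 87 and 193, and miR-29c-3p between 125 and 224. The order miR-29a-3p, miR-29b-3p, miR-29c-3p, miR-29c-5p, miR-29a-5p was the same in all 6 libraries.

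rno-miR-29a-3p, the most abundant of the seed-sharing strands, had 4695, 4931 and 10201 CPM in C-exo replicates 1, 2 and 3. In R-exo replicates 1, 2 and 3 it had 8595, 12703 and 10336 CPM. C-exo replicates 1 and 2 lay below the R-exo libraries, whereas C-exo replicate 3 lay above R-exo replicate 1, so the groups overlapped. The means were 6609 ± 3113 CPM in C-exo and 10544 ± 2062 CPM in R-exo (SD, n = 3 each). The log2 fold change of R-exo over C-exo was 0.67 (standard error 0.46, 95% confidence interval -0.35 to 1.70, Benjamini-Hochberg adjusted p = 0.51 over 404 miRNAs by the quasi-likelihood test of edgeR).

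rno-miR-29b-3p, which carries the same seed and is made from both pairs of stem-loops, had 60.5, 113 and 460 CPM in C-exo replicates 1, 2 and 3. In R-exo replicates 1, 2 and 3 it had 192, 554 and 235 CPM. The control libraries spanned a 7.61-fold range, against 2.88-fold in R-exo, and C-exo replicate 3 exceeded all but R-exo replicate 2. The log2 fold change was 0.63 (standard error 0.75, 95% confidence interval -1.07 to 2.32, adjusted p = 0.69 in the same edgeR test).

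rno-miR-29c-3p, which is made from the chromosome 13 pair, had 35.4, 66.6 and 220 CPM in C-exo replicates 1, 2 and 3. In R-exo replicates 1, 2 and 3 it had 102, 256 and 136 CPM. The libraries fell in the same order as for miR-29b-3p, with C-exo replicate 3 and R-exo replicate 2 highest. The log2 fold change was 0.62 (standard error 0.69, 95% confidence interval -0.92 to 2.16, adjusted p = 0.65 in the same edgeR test).

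**Figure D1:**
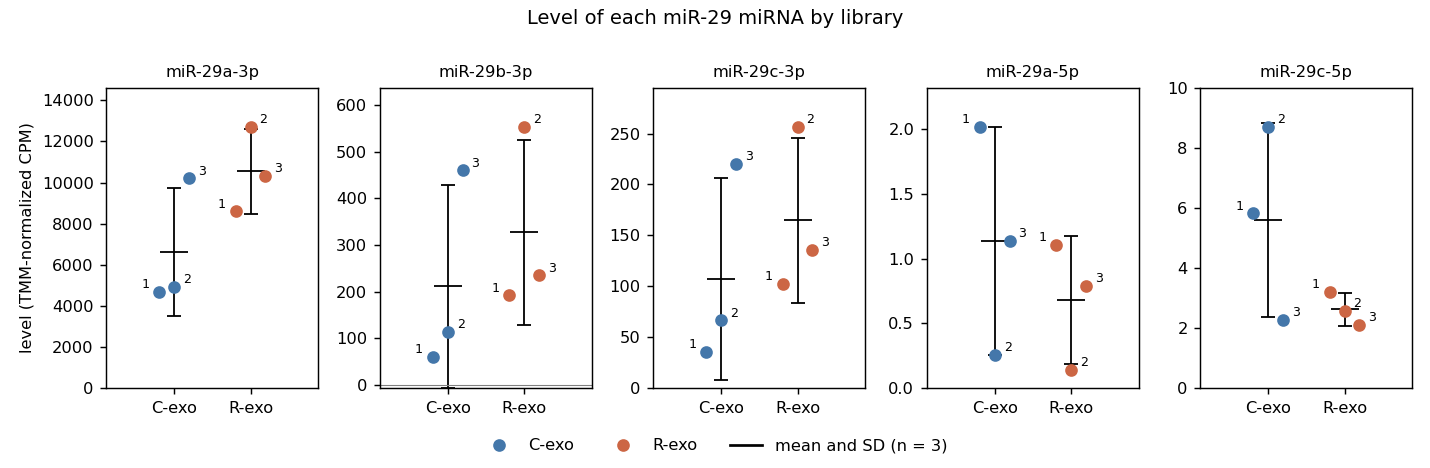
Level in TMM-normalized CPM (vertical axes, linear, one scale per panel) of the 5 members in C-exo and R-exo. Points are single libraries with their replicate number, and bars give the mean and SD (n = 3). For each 3p strand C-exo replicates 1 and 2 lie below every R-exo library and C-exo replicate 3 lies among them, while miR-29c-5p shows the opposite arrangement.

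None of the 4 members that could be tested passed the threshold with all 6 libraries. At an adjusted p under 0.05, 0 of these 4 were called by edgeR and, among all 404 miRNAs, 0 (0%). DESeq2 also called 0 of 404, and 38 miRNAs had an unadjusted p under 0.05 in the edgeR test. By the looser criterion of a change above 2-fold and an unadjusted p under 0.05, 0 of the 4 were called, where 1.98% of the tested miRNAs were called higher and 7.43% lower in R-exo. The split of these calls over all miRNAs, 8 higher and 30 lower, became 18 higher and 15 lower with scaling by library size alone. The libraries did not separate the groups for any of the 4 members, where 4.95% of the tested miRNAs lay wholly higher and 7.92% wholly lower in R-exo. By fold change, miR-29a-3p, miR-29b-3p and miR-29c-3p ranked 77, 83 and 86 of 404 from the most raised, and the median log2 fold change over all tested miRNAs was -0.05.

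Without C-exo replicate 3, all 3 seed-sharing strands were called higher in R-exo. The log2 fold change was 1.14 for miR-29a-3p (adjusted p = 0.035), 1.92 for miR-29b-3p (adjusted p = 0.019) and 1.70 for miR-29c-3p (adjusted p = 0.025) in edgeR's quasi-likelihood test on 5 libraries. C-exo replicate 3 was the control library most like R-exo, so that leaving it out widens the differences between the groups by construction, and these calls are a description of how much rests on it. In that fit 17.3% of 422 tested miRNAs were called higher and 14% lower, so a large share of all miRNAs changed its call along with the family. Leaving out any of the other 5 libraries gave no call for a member. The weakest change of miR-29b-3p and miR-29c-3p, a log2 fold change of 0.06 and 0.18, came without R-exo replicate 2, the R-exo library with the highest level of each. Without C-exo replicate 1, the C-exo library with the lowest level of all 3 strands, the changes were 0.45 for miR-29a-3p, 0.18 for miR-29b-3p and 0.19 for miR-29c-3p.

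**Figure D2:**
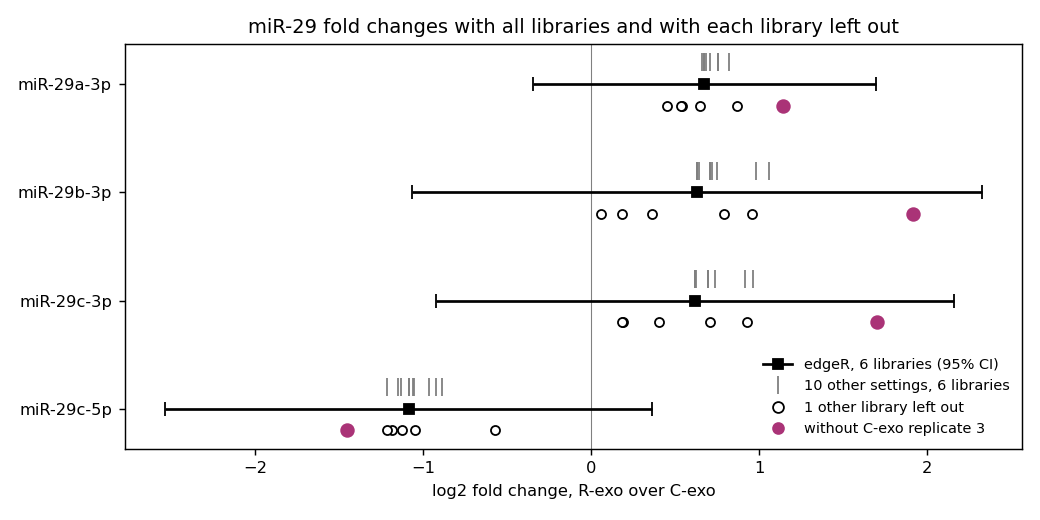
Log2 fold change of R-exo over C-exo (horizontal axis) for the 4 tested members. Squares with bars are the edgeR estimates from 6 libraries with their 95% confidence intervals, ticks are the 10 other settings that kept all libraries, and circles are the fits with 1 library left out. The 3p strands lie above 0 and miR-29c-5p below 0 in every fit drawn, and the fit without C-exo replicate 3 lies farthest from 0 for each.

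Levels of miR-29a-3p depended on the scaling where the groups met. With scaling by library size alone, it had 3820, 5481 and 9523 CPM in C-exo replicates 1, 2 and 3 and 9935, 12672 and 10615 CPM in R-exo replicates 1, 2 and 3. On that scale the groups did not overlap, as was so for 8.66% of the tested miRNAs in that direction. Its log2 fold change there was 0.82 (adjusted p = 0.51 by edgeR), beside a median of 0.10 over all tested miRNAs in place of -0.05. TMM lowered the effective library size most in C-exo replicate 1, with a factor of 0.814, and raised it most in R-exo replicate 1, with a factor of 1.16. miR-29b-3p, miR-29c-3p and miR-29c-5p overlapped between groups under all 4 scalings, and the sign of their fold changes was the same in each.

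**Figure D3:**
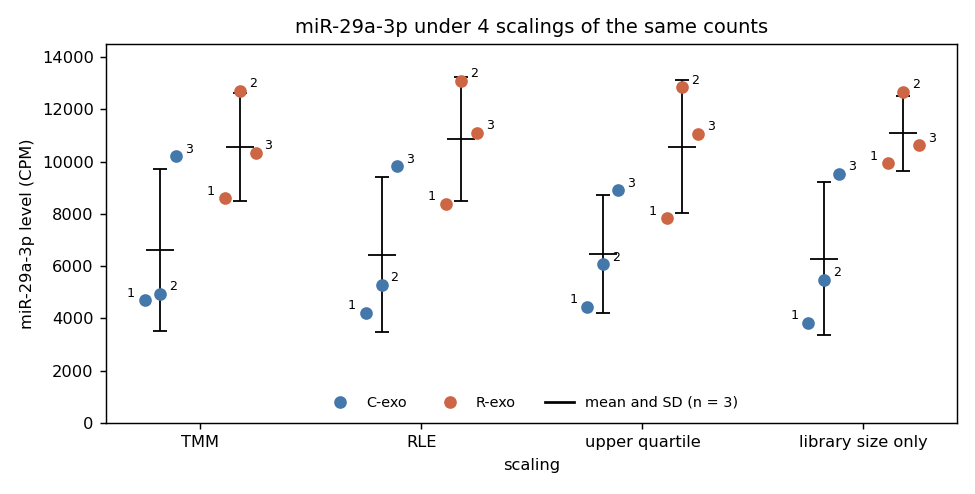
Level of miR-29a-3p in CPM (vertical axis, linear from 0) under 4 scalings of the same counts (horizontal axis). Points are libraries with their replicate number, and bars give the mean and SD (n = 3). C-exo replicate 3 is above R-exo replicate 1 under TMM, RLE and upper quartile scaling and below it, at 9523 against 9935 CPM, when only the library size is used.

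miR-29b-3p and miR-29c-3p held nearly the same proportion to each other in every library, whereas miR-29a-3p did not follow them as closely. The ratio of miR-29b-3p to miR-29c-3p counts was between 1.70 and 2.16 in the 6 libraries. In contrast, the ratio of miR-29a-3p to miR-29b-3p ran from 22.2 in C-exo replicate 3 to 77.4 in C-exo replicate 1, and that of miR-29a-3p to miR-29c-3p from 46.3 to 132 in the same libraries. Such ratios are taken within a library and so do not depend on the scaling. Across libraries, Pearson's r of log2 CPM was 0.998 between miR-29b-3p and miR-29c-3p, 0.934 between miR-29a-3p and miR-29b-3p, and 0.940 between miR-29a-3p and miR-29c-3p. These are descriptions over 6 libraries that fall into their groups and share the position of C-exo replicate 3. Reads of miR-29c-3p amounted to between 0.754% and 2.16% of those of miR-29a-3p, from which they differ by C10U. Whether misread miR-29a-3p molecules were among them was not tested. miR-29b-3p differs from miR-29c-3p only by A18G, G21U and U22A and by 1 more base at its 3′ end. A read that ended before base 18 would therefore match both strands. Whether such reads enter the steady ratio of miR-29b-3p to miR-29c-3p was not tested either.

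**Figure D4:**
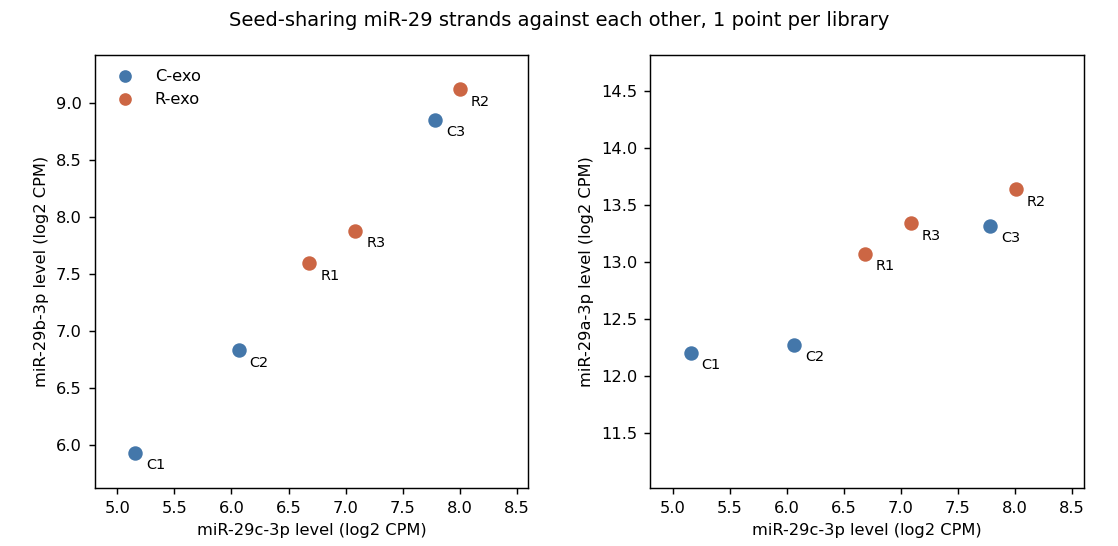
Log2 CPM of miR-29b-3p (left) and miR-29a-3p (right) against that of miR-29c-3p, with 1 point per library and equal scales on both axes. The 6 libraries lie near a line for miR-29b-3p (r = 0.998), and miR-29a-3p spans a narrower range than miR-29c-3p, with C-exo replicates 1 and 2 at nearly the same level.

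The 5p strands were rare. rno-miR-29c-5p, the opposite arm of miR-29c-3p, was counted 26, 68 and 16 times in C-exo replicates 1, 2 and 3. In R-exo replicates 1, 2 and 3 it was counted 26, 18 and 16 times. As levels, the C-exo libraries had 5.83, 8.71 and 2.28 CPM and the R-exo libraries 3.20, 2.58 and 2.11 CPM. On this TMM scale C-exo replicates 1 and 2 lay above all R-exo libraries, and C-exo replicate 3 lay within their range. The libraries were thus arranged opposite to the 3p strands. Under RLE, upper quartile and library size scaling, C-exo replicate 3 lay below every R-exo library. By library size alone it had 2.12 CPM, against 2.17 CPM in R-exo replicate 3. Both libraries had 16 reads, so the order of that pair rests on the scaling. The log2 fold change was -1.08 (standard error 0.65, 95% confidence interval -2.53 to 0.36, adjusted p = 0.51, edgeR's quasi-likelihood test). Without C-exo replicate 3 it was -1.46 (adjusted p = 0.072), and without C-exo replicate 2, the library with the most reads on this strand, it was -0.58 (adjusted p = 0.84, the same edgeR test). Counting error alone was wide here. The level given by the 16 reads in C-exo replicate 3 was 2.12 RPM (CPM by library size alone), with a Wilson 95% interval of 1.31 to 3.45 RPM, which covers counting error only, since no molecular identifiers are described for these PCR-amplified reads.

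rno-miR-29a-5p, the opposite arm of the most abundant strand, was counted 9, 2 and 8 times in C-exo replicates 1, 2 and 3 and 9, 1 and 6 times in R-exo replicates 1, 2 and 3. It was the 1 member of the 5 that did not pass the filter on low counts and was not tested. The highest share of reads, 1.64 RPM in C-exo replicate 1, had a Wilson 95% interval of 0.863 to 3.12 RPM, and the lowest, 0.143 RPM in R-exo replicate 2, one of 0.0253 to 0.811 RPM.

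The table also held 2 rows of the family outside the members. rno-miR-29b-5p, the 5p strand of Mir29b2, was counted 6, 24 and 8 times in C-exo replicates 1, 2 and 3 and 6, 2 and 4 times in R-exo replicates 1, 2 and 3. It did not pass the filter, and in CPM each R-exo library lay below each C-exo library, as was so for 7.92% of the tested miRNAs, at 0.739, 0.287 and 0.528 against 1.34, 3.07 and 1.14 CPM (exact two-sided permutation p = 0.1, the smallest that 3 against 3 allow). The C-exo replicate 1 and R-exo replicate 1 counts behind this order were equal at 6 reads, so the order of that pair rests on library size. rno-miR-29b-1-5p, the 5p strand of Mir29b1, had 0 reads in every library, which allows a level of up to 0.672 CPM in the library of lowest effective depth at 3 counts.

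The excess of the 3p over the 5p strand differed between stem-loops and between libraries. For Mir29c, miR-29c-3p had 5.98, 7.60 and 93.8 times the count of miR-29c-5p in C-exo replicates 1, 2 and 3. In R-exo replicates 1, 2 and 3 the ratio was 31.4, 96.6 and 62.3. C-exo replicates 1 and 2 had the lowest ratios and C-exo replicate 3 one close to the highest. On the log2 scale the ratio was 4.02 ± 2.20 in C-exo and 5.84 ± 0.817 in R-exo (SD, n = 3 each), a difference of 1.82 (exact two-sided permutation p = 0.3, adjusted p = 0.83 over 5 ratios). For Mir29a the log2 ratio was 12.7 ± 1.44 in C-exo and 14.1 ± 1.57 in R-exo (SD, n = 3 each), a difference of 1.40 (exact two-sided permutation p = 0.5, adjusted p = 0.83 over 5 ratios), and it rests on 9 or fewer reads of the 5p strand per library. The difference for Mir29c was 3.09 without C-exo replicate 3 (exact two-sided permutation p = 0.2, the smallest that 2 against 3 allow) and 1.10 without C-exo replicate 1. For Mir29a it was 1.57 without C-exo replicate 3, 0.61 without C-exo replicate 1 and 0.51 without R-exo replicate 2.

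The balance among the seed-sharing strands did not separate the groups either. The log2 ratio of miR-29a-3p over miR-29c-3p was 6.26 ± 0.758 in C-exo and 6.09 ± 0.405 in R-exo (SD, n = 3 each), with an exact two-sided permutation p of 1. The log2 ratio of miR-29a-3p over miR-29b-3p was 5.40 ± 0.904 and 5.15 ± 0.549 (SD, n = 3 each), with an exact two-sided permutation p of 1. The log2 ratio of miR-29b-3p over miR-29c-3p was 0.87 ± 0.17 and 0.94 ± 0.16 (SD, n = 3 each), with an exact two-sided permutation p of 0.5. The differences of R-exo from C-exo in these log2 ratios were -0.54, -0.71 and 0.17 without C-exo replicate 3, in place of -0.17, -0.24 and 0.07. They changed sign without R-exo replicate 2, to 0.06, 0.07 and -0.02, and the first 2, those of miR-29a-3p over another strand, also did so without C-exo replicate 1, to 0.22 and 0.20. With 3 against 3 libraries no exact test can give a p under 0.1, so a p above the threshold does not show that the balance was equal.

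**Figure D5:**
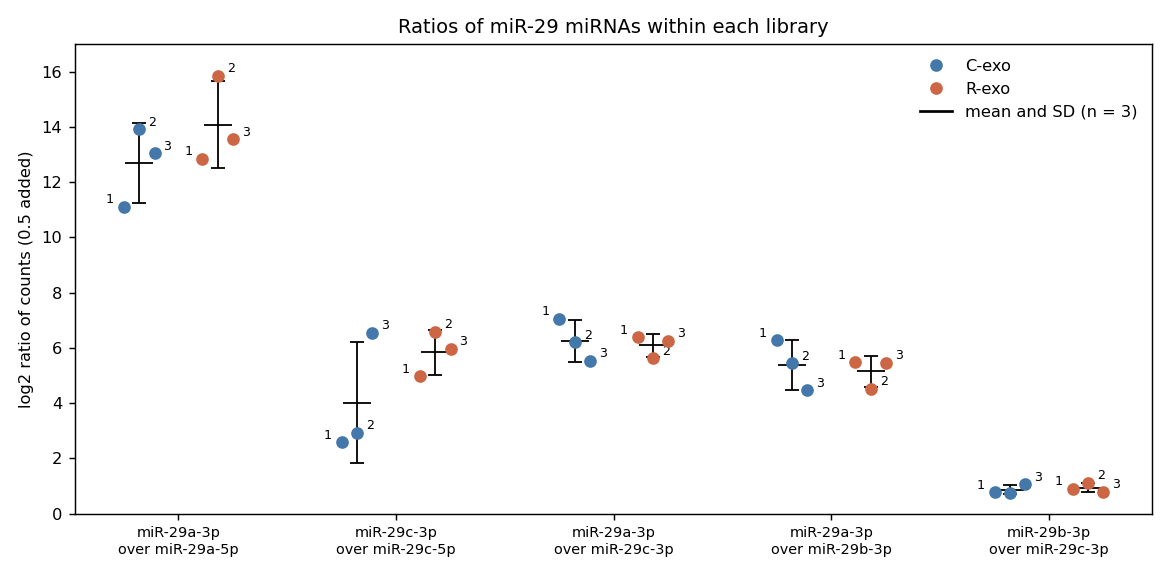
Log2 ratio of the counts of pairs of miR-29 miRNAs within each library (vertical axis, 0.5 added to each count) for the 5 ratios compared. Points are libraries with their replicate number, and bars give the mean and SD (n = 3). The ratios of 3p over 5p strand vary over several log2 units, while that of miR-29b-3p over miR-29c-3p stays between 0.77 and 1.11.

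For each 3p strand the most alike miRNAs outside the family were found by their levels over the libraries. Of 400 tested miRNAs outside the family, those with the highest Pearson's r of log2 CPM with miR-29a-3p over the 6 libraries were miR-340-3p (r = 0.992), miR-200a-3p (r = 0.992) and miR-141-3p (r = 0.991). miR-200a-3p and miR-141-3p are members of the epithelial miR-200 family. For miR-29b-3p they were miR-27b-3p (r = 0.992), miR-181b-5p (r = 0.987) and miR-376b-3p (r = 0.977), and for miR-29c-3p they were miR-27b-3p (r = 0.995), miR-181b-5p (r = 0.983) and miR-194-5p (r = 0.973). miR-27b-3p had 1577, 2633 and 10280 CPM in C-exo replicates 1, 2 and 3 and 5159, 11686 and 6690 CPM in R-exo replicates 1, 2 and 3, so the same 2 libraries, C-exo replicate 3 and R-exo replicate 2, were highest. Its own log2 fold change was 0.70 (adjusted p = 0.61 by edgeR). These miRNAs were picked as the highest of 400 by r over the same 6 libraries, so that a high r is fixed by the choice.

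miRNAs typical of blood cells did not follow a single order over the libraries. The summed level of the platelet and leukocyte list (miR-223-3p, miR-142-5p, miR-142-3p and miR-150-5p) was 5001, 3553 and 21387 CPM in C-exo replicates 1, 2 and 3 and 11779, 26861 and 11449 CPM in R-exo replicates 1, 2 and 3. Most of it in C-exo replicate 3 was miR-142-5p, a miRNA of leukocytes and other blood cells, with 18751 CPM, and this strand was highest in the same 2 libraries as miR-29b-3p and miR-29c-3p. The opposite arm of its stem-loop, miR-142-3p, was not, with 550, 301 and 359 CPM in C-exo replicates 1, 2 and 3 and 965, 533 and 868 CPM in R-exo replicates 1, 2 and 3. miR-223-3p, the classical myeloid miRNA, was highest in C-exo replicate 1, with 793 CPM, against 444 CPM in C-exo replicate 3. The red cell list (miR-451-5p, miR-486, miR-144-3p and miR-144-5p) ran from 69280 to 198092 CPM in C-exo and from 44540 to 74966 CPM in R-exo, highest in C-exo replicate 1, where miR-486 made up 195813 CPM of the sum. miR-451-5p, an abundant red cell miRNA, had 2023, 2250 and 4600 CPM in C-exo replicates 1, 2 and 3 and 3165, 6239 and 2060 CPM in R-exo replicates 1, 2 and 3, highest in the same 2 libraries as miR-29b-3p and miR-29c-3p. The liver list (miR-122-5p and miR-192-5p) ran from 79587 to 108023 CPM in C-exo and from 75204 to 80653 CPM in R-exo. The striated muscle list (miR-1-3p, miR-133a-3p and miR-206-3p) ran from 1467 to 9539 CPM in C-exo and from 1623 to 4949 CPM in R-exo, highest in C-exo replicate 3. None of the 13 miRNAs of these lists was at 0 in every library, and none was called at an adjusted p under 0.05 with all 6 libraries (edgeR). At an unadjusted p under 0.05, 2 of the 13 were past it in the edgeR test, miR-144-3p (log2 fold change 1.07, unadjusted p = 0.023) and miR-144-5p (1.63, unadjusted p = 0.018), which are among the 8 miRNAs called higher by the looser criterion. Both were higher in each R-exo library than in each C-exo library, as were 4.95% of all tested miRNAs. Of all 404 tested miRNAs, 38 had an unadjusted p under 0.05 in that test. Some other fits on all libraries also gave one for miR-142-3p. These were edgeR with RLE scaling (unadjusted p = 0.038) or library size alone (0.031), DESeq2 (0.023) and limma-voom (0.049). For miR-486 edgeR gave one without the filter on low counts (unadjusted p = 0.038). When C-exo replicate 3 was left out, miR-142-5p (log2 fold change 2.59, adjusted p = 0.0053) and miR-144-5p (2.23, adjusted p = 0.0080) were called higher and miR-486 (-1.35, adjusted p = 0.016) lower by edgeR, where 17.3% of all tested miRNAs were called higher and 14% lower. The plasma had been spun to remove cells and platelets before the exosomes were pelleted. A change in the cells that release vesicles and a change in the RNA within vesicles cannot be told apart in such samples, and the part of blood cells in the levels of miR-29 was not tested.

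Other miRNAs with known roles in fibrosis also gave no call with all 6 libraries, and some of them were called without C-exo replicate 3. Of 8 further miRNAs described as antifibrotic, all were tested, 0 had an adjusted p under 0.05 in edgeR's quasi-likelihood test and 0 an unadjusted p under 0.05. Their median log2 fold change was 0.57, against -0.05 over all tested miRNAs, with 6 of 8 above 0, where 48.8% of all tested miRNAs were above 0. miR-26a-5p, which targets collagen transcripts, had 2177, 2107 and 14864 CPM in C-exo replicates 1, 2 and 3 and 12559, 17773 and 14001 CPM in R-exo replicates 1, 2 and 3. Its log2 fold change was 1.21 (adjusted p = 0.51, the same edgeR test), and C-exo replicate 3 again lay within the range of R-exo. miR-30c-5p, which represses connective tissue growth factor, had a log2 fold change of 0.46, and miR-133a-3p, a muscle miRNA with the same target, one of -0.33. miR-101a-3p and miR-101b-3p had 0.60 and 0.54, miR-200a-3p and miR-200b-3p had 1.01 and 0.67, and miR-24-3p had -0.08 (adjusted p between 0.50 and 0.91 for the 8 by edgeR). Of the 8, miR-200b-3p alone had groups that did not overlap on the TMM scale, beside 4.95% of all tested miRNAs in that direction. It had 101, 50.2 and 132 CPM in C-exo replicates 1, 2 and 3 and 154, 150.2 and 146 CPM in R-exo replicates 1, 2 and 3. For the others of the 8, overlap is given on this scale only, and for miR-29a-3p it depended on the scaling. Without C-exo replicate 3, miR-26a-5p (log2 fold change 2.80, adjusted p = 0.0021) and miR-200a-3p (1.83, adjusted p = 0.0089) were called higher in R-exo by edgeR, 2 of the 8, where 17.3% of all tested miRNAs were.

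The 4 miRNAs described as profibrotic were also without a call by the quasi-likelihood test with all 6 libraries, at an adjusted or an unadjusted p under 0.05, although miR-21-5p, miR-34a-5p and miR-155-5p each had an unadjusted p under 0.05 in some of the other fits on all libraries. miR-21-5p, which is raised in activated fibroblasts, had a log2 fold change of 1.04, and miR-155-5p, a miRNA of inflammation, one of 1.05 (adjusted p = 0.51 and 0.50, edgeR's quasi-likelihood test). miR-34a-5p had 1.92 (adjusted p = 0.47, the same edgeR test) with groups that did not overlap, as for 4.95% of all tested miRNAs in that direction, but at under 3 CPM in every library and with 0 reads in C-exo replicate 1, and miR-199a-5p had -0.20. The median log2 fold change of the 4 was 1.05, on the same side of 0 as that of the antifibrotic list. Without C-exo replicate 3, miR-21-5p (log2 fold change 2.08, adjusted p = 0.0041) and miR-155-5p (1.89, adjusted p = 0.014) were called higher in R-exo by edgeR, again beside 17.3% of all tested miRNAs.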

How the data were processed

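Small RNA libraries of 3 C-exo and 3 R-exo samples were analysed. The authors deposited 1 table of raw read counts on 763 mature rat miRNAs, without normalization or pooling. The submitters' processing notes name bcl2fastq, BWA and the build rn6. Trimming, the miRNA database and the treatment of reads matching several miRNAs are not given in the sources used here, which bears most on the near-identical 3p strands. No 2 libraries of a group agreed within sampling noise.

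Counts were filtered with filterByExpr (minimum count 10, minimum total 15), leaving 404 miRNAs, 4 of the 5 members among them. They were scaled by TMM and compared with the quasi-likelihood test of edgeR 4.0.16 (R 4.3.3), modelling group alone, and p-values were adjusted over the 404 by Benjamini-Hochberg. For the sequencing the paper names a cluster analysis and a criterion of fold change and p, and for its 2-group tests in general Student's or rank tests, without a count model. log2 CPM used a prior count of 2, and ratios 0.5 added to both counts. Single values were compared by exact permutation tests (scipy 1.17.1). Alternatives were other scalings and filters, DESeq2 1.42.0, limma-voom (limma 3.58.1), edgeR's exact test, a robust fit, a block for the replicate number, and fits with each library left out. The procedure was tested on simulated data. Sequences came from RefSeq (GRCr8), which held 686 of the 763 rows. The named miRNAs were the members, other miR-29 rows, the fibrosis and cell type lists, and the 3 most alike miRNAs for each 3p strand. Members and lists were chosen with earlier results of these data known.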

Additional observations from a re-analysis of the deposited data

How the results depend on the processing

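In the 10 alternatives that kept all 6 libraries, the 4 tested members kept their direction and stayed without a call, with log2 fold changes of 0.66 to 0.82 for miR-29a-3p, 0.63 to 1.06 for miR-29b-3p, 0.62 to 0.96 for miR-29c-3p and -1.22 to -0.89 for miR-29c-5p. The count past a fold change of 2 with an unadjusted p under 0.05 was 63 without the filter on low counts, against 38. Only that setting gave a value for miR-29a-5p, a log2 fold change of -0.58 (adjusted p = 0.84 by edgeR). Among the 12 miRNAs of the fibrosis lists, none of which had an unadjusted p under 0.05 in the quasi-likelihood test, miR-26a-5p, miR-200a-3p, miR-21-5p, miR-34a-5p and miR-155-5p had one by limma-voom, miR-26a-5p, miR-21-5p and miR-155-5p with the replicate block, miR-26a-5p and miR-21-5p without the filter, and miR-34a-5p by edgeR's exact test, with no adjusted p under 0.05.

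With each library left out in turn, that count ran from 15 to 182 and the count with an adjusted p under 0.05 from 0 to 132, both highest without C-exo replicate 3. The log2 fold changes ran from 0.45 to 1.14 for miR-29a-3p, 0.056 to 1.92 for miR-29b-3p and 0.18 to 1.70 for miR-29c-3p, and the summed 3p level in R-exo over that in C-exo from 1.38 to 2.23. Group differences in log2 ratio ran from 0.51 to 2.02 for miR-29a-3p over miR-29a-5p and from 1.10 to 3.09 for miR-29c-3p over miR-29c-5p, and changed sign for miR-29a-3p over miR-29c-3p (-0.54 to 0.22), miR-29a-3p over miR-29b-3p (-0.71 to 0.20) and miR-29b-3p over miR-29c-3p (-0.017 to 0.17). The cause was not tested.

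With the replicate block, a paired fit, 38 miRNAs met the criterion, 25 of them higher in R-exo, against 8 of 38 without the block, and the log2 fold changes were 0.75, 1.06, 0.96 and -0.92 for miR-29a-3p, miR-29b-3p, miR-29c-3p and miR-29c-5p, with no call. Deviations from the group means of same-numbered libraries, which come from different rats, correlated at 0.33, -0.28 and 0.28 for numbers 1, 2 and 3, so the numbers were not taken to pair the libraries.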

Other observations

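Among the 161 stem-loops with at least 10 reads in all on each arm, the mean log2 ratio of 3p over 5p counts had a median of 0.34, and Mir29a had the highest, at 13.4. This value rests on 19 reads of miR-29a-5p in C-exo and 16 in R-exo. Stem-loops with fewer than 10 reads on an arm were not ranked. The mean log2 ratio of miR-29c was 4.93, which ranked 32. The shift of this ratio from C-exo to R-exo was 1.82 for miR-29c, which ranked 8, and 1.40 for miR-29a, which ranked 23, where the median over the 161 was -0.02. For neither did the libraries of the groups separate, where 13 of the 161 (8.07%) lay wholly higher in R-exo. By name, the rows miR-29b-3p and miR-29b-5p gave the largest shift of the 161, 2.67, although miR-29b-3p comes from both miR-29b stem-loops and miR-29b-5p from Mir29b2 alone, and the 5p strand had 50 reads in all 6 libraries. These ranks are descriptions and were not tested.

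RefSeq places a further stem-loop on the opposite strand of 3 of the 4 miR-29 stem-loops, Mir3556a over Mir29a, Mir3587 over Mir29b1 and Mir3556b over Mir29c. The rows miR-3556a, miR-3587 and miR-3556b, named after their values were seen, had 0 reads in every library.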
